A study of Mus musculus with 6 samples.

Results

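The 58 genes described here encode the machinery that stores transmitter in synaptic vesicles, fuses those vesicles with the presynaptic membrane and retrieves them. They were taken as a named list of symbols: a probe set counted for a gene if the array's annotation gave it exactly 1 symbol, and where a gene had several, the one brightest on average over the 6 arrays stood for it. All 58 symbols were found, out of 22180 genes measured in the same way. The arrays held RNA from whole mouse cerebellum collected at postnatal day 7. 3 arrays came from mice with Math1Cre and wild-type Crebbp (the wild type), and 3 from Math1Cre::CrebbpFl/Fl mice, in which both copies of Crebbp are floxed (the knockout). Both groups therefore carry the Cre transgene. Math1 (Atoh1) drives Cre in granule neuron precursors and some other cells of the rhombic lip, so the other cells of the tissue keep Crebbp and contribute RNA to every array. No label says that the arrays came from separate animals, so p-values measure the spread between samples, which may be partly technical.

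As background, transmitter release runs through a fixed series of steps. A vesicle is docked at the active zone by RIM proteins and RAB3, primed by MUNC13 and CAPS proteins, and fused by a SNARE complex of synaptobrevin, syntaxin and SNAP-25 when synaptotagmin binds calcium. Dynamin and the clathrin adaptors then retrieve the membrane. In the cerebellum the granule neurons are the most numerous neurons. In the days around the time of sampling their precursors still divide, while their daughters migrate inward, grow parallel fibres and begin to form glutamatergic synapses on Purkinje cells. CREBBP is an acetyltransferase and a coactivator of CREB and of many other transcription factors.

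Crebbp, the targeted gene, read 11.96, 11.99 and 11.90 in wild type and 11.46, 11.42 and 11.32 in knockout (log2 change -0.56, SE 0.05, limma adjusted p = 0.000354), which put every array on the side of its label. Whether the probe set lies in the deleted exons was not checked here. No marker of maturing granule neurons, Purkinje cells or Bergmann glia averaged below 6.02, the 25th percentile of all values, while 2 of 3 forebrain markers, Emx2 and Tbr1, did and the third, Emx1, did not. Levels of different probe sets are not comparable, so this describes the markers and is no test of the tissue. Choroid plexus genes set 3 arrays apart. Ttr, the transthyretin gene of that tissue, read 12.30 on wild-type array 1, 13.77 on knockout array 1 and 13.92 on knockout array 3, but 8.08, 8.91 and 9.19 on the other 3 arrays.

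Many of the presynaptic genes fell in the knockout. Of the 58, 23 fell, 0 rose and 35 did not pass, with a threshold of a limma adjusted p under 0.05 over all genes. Of all 22180 genes, 3.94% fell and 2.72% rose by the same rule (6.67% either way), against 39.7% of the presynaptic genes that fell. With dim genes left out (those averaging below 6.02), 5.38% of the remaining genes fell. None of the presynaptic genes was that dim. At an unadjusted limma p under 0.05, 36 of the 58 were lower and 0 were higher, beside 2411 lower and 2122 higher of all 22180 genes. No other tool was run. The changes were modest: the 23 genes fell by 0.21 to 0.70 on the log2 scale (1.16-fold to 1.63-fold), with a median change of -0.39. The median over all 58 was -0.22, beside -0.003 over all genes. Among all genes past the threshold 59.2% were falls, and 71.1% after each array was centred on its median. Under that setting 28 presynaptic genes fell and 0 rose, beside 4.89% of all genes that fell.

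Most changes had the same sign. Below 0 lay 48 of the 58 changes, where 50.9% of all genes lay below 0. The 3 values of each group stood apart, knockout lower, in 39 of the 58 genes, against 13.1% of all genes, and stood apart with the knockout higher in 1 gene, against 11.8%. The exception was Cplx3, a complexin of ribbon synapses, with a change of 0.09 that did not pass. Averaged over the 58 genes, each relative to its own wild-type mean, wild type read 0.00, 0.04 and -0.05 and knockout -0.20, -0.17 and -0.27. All 3 knockout arrays thus lay below all 3 wild-type arrays. In a bulk tissue, fewer cells of a type and less RNA per cell cannot be told apart.

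**Figure D1:**
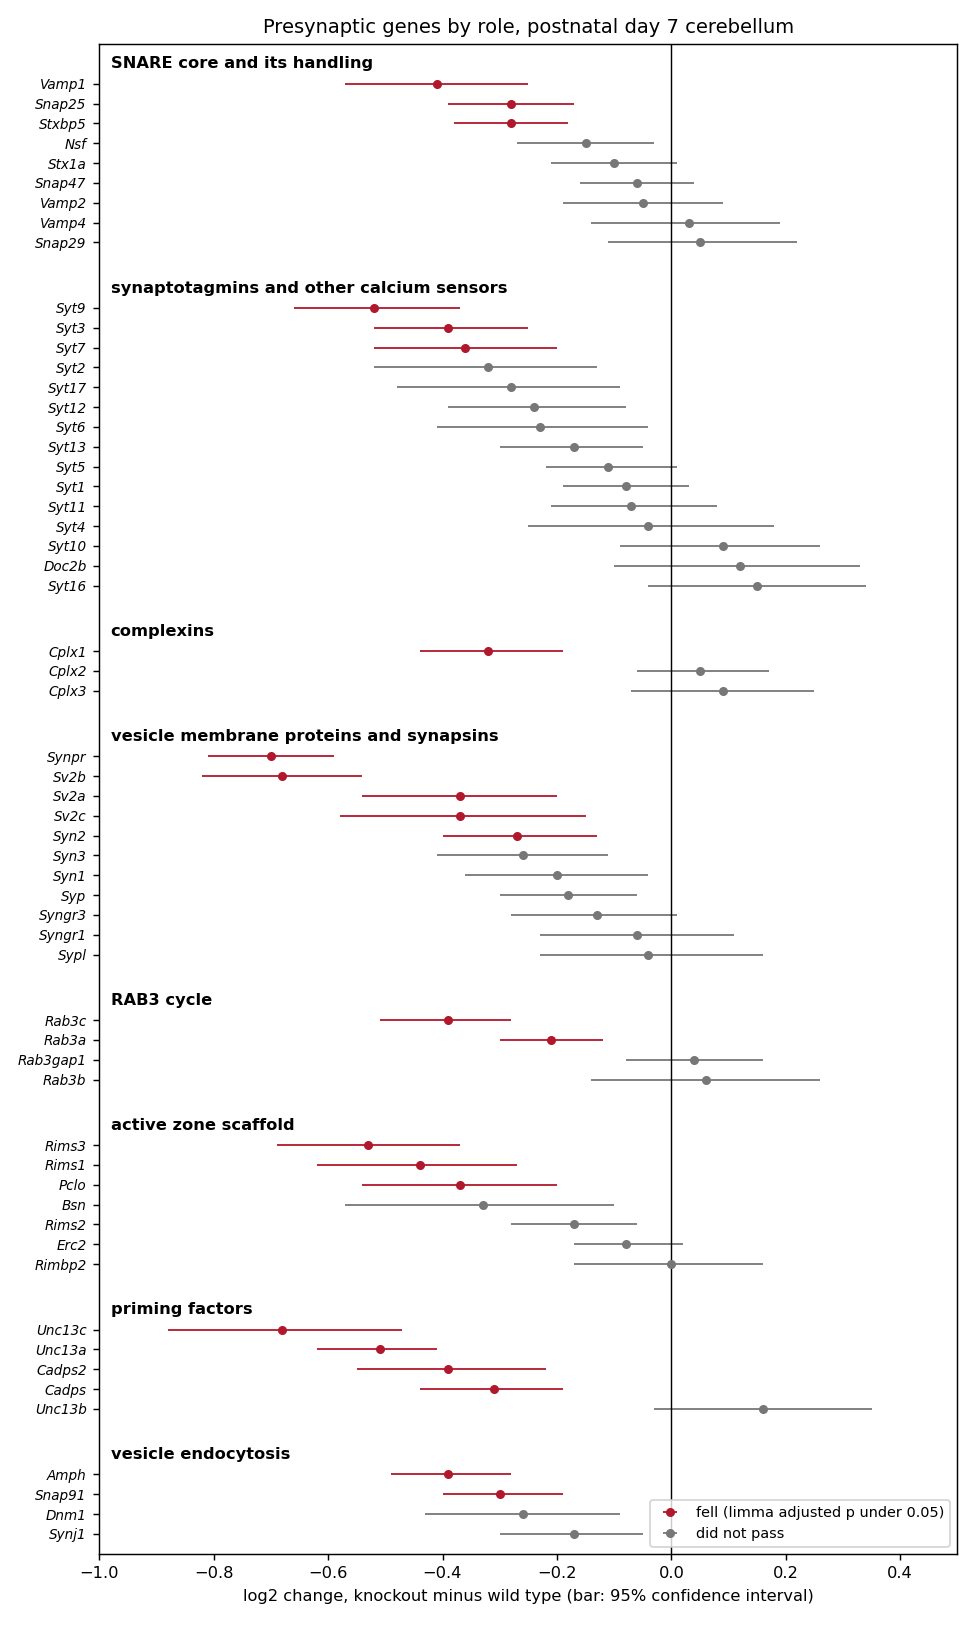
Log2 change (knockout minus wild type) of each of the 58 presynaptic genes with its 95% confidence interval from limma, grouped by role and ordered by change within a role. The 23 genes that fell are in red and the 35 that did not pass in grey; the intervals of the 10 genes with changes above 0 all include 0.

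**Figure D2:**
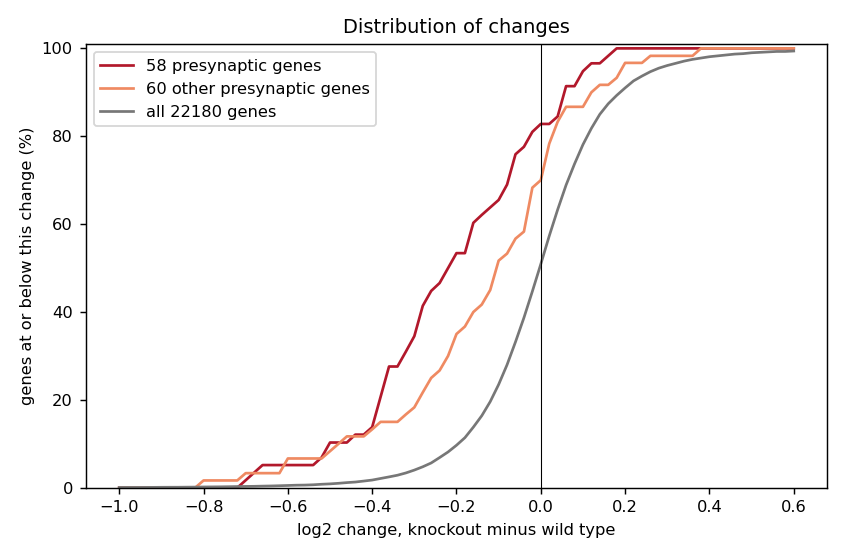
Percentage of genes (vertical axis) whose log2 change (horizontal axis) is at or below a given value, for the 58 presynaptic genes, 60 other presynaptic genes and all 22180 genes. Between log2 changes of about -0.6 and 0.2 the curve of the 58 genes lies to the left of the curve of all genes, and below the lowest of the 58 (-0.70) only the other curves have genes; the medians are -0.22 and -0.003.

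Since 23 of these genes fell, the 250 bases before their start sites were read for binding motifs, in the RefSeq promoter table (build GRCm38.p6). The motifs were the full CREB response element (TGACGTCA), the short CREB site (TGACG) and an E box of the proneural factors (CATCTG), each on both strands, and every full element also holds the short site. The table held 46 of the 58 genes and 16990 of all genes tested, with a gene counted once if any of its start sites had a match. The full element was present in 1 of the 46 genes (2.17%), against 2.30% of all genes. That gene was Syn1, which did not pass. The short site was present in 10 of 46 (21.7%), against 23.2%, and the E box in 5 of 46 (10.9%), against 14.3%. Among the 21 genes with a sequence that fell, 2 had the short site (9.52%) and 4 the E box (19.0%), and among the 25 that did not pass, 8 had the short site (32.0%) and 1 the E box (4.0%). Over the 46 genes the shares lay near those of all genes. The shares of the genes that fell and of those that did not pass lay on either side of them, rest on few genes and were not tested. A match is a description of the letters, not a site in use. The 3 promoters printed belong to the 3 genes with the smallest p among those that fell and held a match. Each is written 5′ to 3′ on its gene's strand and ends at the base before the start site, with the matches in capitals: Unc13a at chr8:71671758-71672007 (minus strand) with the short site in reverse at 44 and at 11 bases before the start, Rims3 at chr4:120854549-120854798 (plus strand) with an E box at 58, and Snap91 at chr9:86880709-86880958 (minus strand) with an E box at 234.
Unc13a: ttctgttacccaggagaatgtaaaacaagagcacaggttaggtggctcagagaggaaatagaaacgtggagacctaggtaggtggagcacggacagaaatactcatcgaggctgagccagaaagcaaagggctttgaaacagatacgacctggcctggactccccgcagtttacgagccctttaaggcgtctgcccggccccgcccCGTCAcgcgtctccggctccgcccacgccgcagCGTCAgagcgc
Rims3: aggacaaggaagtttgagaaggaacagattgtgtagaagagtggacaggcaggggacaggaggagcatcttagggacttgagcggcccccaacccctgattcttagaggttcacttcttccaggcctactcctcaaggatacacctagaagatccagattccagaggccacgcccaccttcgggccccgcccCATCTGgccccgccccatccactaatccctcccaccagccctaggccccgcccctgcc
Snap91: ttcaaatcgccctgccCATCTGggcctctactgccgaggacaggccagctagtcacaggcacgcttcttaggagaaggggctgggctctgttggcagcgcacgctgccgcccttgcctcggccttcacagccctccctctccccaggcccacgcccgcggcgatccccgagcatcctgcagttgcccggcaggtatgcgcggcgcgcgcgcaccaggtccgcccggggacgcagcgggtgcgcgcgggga

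The priming factors, which make docked vesicles ready for fusion, held the largest share of falls of the roles: 4 of 5 fell, 0 rose, and the median change was -0.39. Unc13a encodes MUNC13-1, the main priming protein of glutamatergic synapses. It read 10.70, 10.69 and 10.58 in wild type and 10.15, 10.15 and 10.13 in knockout (log2 change -0.51, SE 0.05, limma adjusted p = 0.000473). The 3 knockout arrays lay within 0.02 of each other and well below the lowest wild-type array. Unc13c encodes MUNC13-3, the form enriched in the cerebellum. It read 9.34, 9.69 and 9.46 in wild type and 8.89, 8.88 and 8.69 in knockout, a 1.60-fold fall (log2 change -0.68, SE 0.09, adjusted p = 0.00278). Its wild-type arrays spread more (SD 0.18), but the groups did not overlap. Unc13b, which encodes MUNC13-2, behaved otherwise. It read 9.47, 9.35 and 9.48 in wild type and 9.77, 9.41 and 9.60 in knockout, so the groups overlapped, and its change of 0.16 did not pass (95% confidence interval -0.03 to 0.35, adjusted p = 0.333).

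The CAPS proteins prime vesicles for regulated secretion, dense-core vesicles above all, and CAPS2 is known for secretion of neurotrophins from granule neurons. Both of their genes fell. Cadps2 read 11.29, 11.49 and 11.32 in wild type and 11.01, 10.83 and 11.10 in knockout (log2 change -0.39, SE 0.07, adjusted p = 0.0145). Its lowest value was on knockout array 2, the knockout array with low choroid plexus genes. Cadps fell from 11.39 ± 0.08 to 11.07 ± 0.08 (SD, n = 3 each), a log2 change of -0.31 (limma adjusted p = 0.0104). Cadps lost its call without wild-type replicate 1 (change -0.31, adjusted p = 0.0581) and Cadps2 without wild-type replicate 2 (change -0.32, adjusted p = 0.0532).

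In the active zone scaffold, which holds vesicles next to calcium channels, 3 of 7 fell, 0 rose and 4 did not pass (median change -0.33). Rims3 encodes a short RIM protein that lacks the RAB3-binding part of the long forms. It read 9.11, 9.04 and 8.86 in wild type and 8.52, 8.47 and 8.44 in knockout (log2 change -0.53, SE 0.07, adjusted p = 0.00295). Rims1 encodes the long RIM1 scaffold and read 9.97, 10.24 and 9.99 in wild type and 9.59, 9.72 and 9.56 in knockout (log2 change -0.44, SE 0.08, adjusted p = 0.00984). Neither gene's groups overlapped. Rims2, its close relative, had a smaller change of -0.17 (SE 0.05, adjusted p = 0.0643) that did not pass, although its groups did not overlap either.

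Pclo, the gene of the giant scaffold Piccolo, fell from 10.67 ± 0.07 to 10.30 ± 0.16 (SD, n = 3 each; log2 change -0.37, adjusted p = 0.0204). It lost its call without wild-type replicate 1 (change -0.38, limma adjusted p = 0.0721) or wild-type replicate 2 (change -0.33, adjusted p = 0.0796). Bsn encodes Bassoon, the partner of Piccolo. Its change of -0.33 was close in size but did not pass (SE 0.10, adjusted p = 0.0951), with knockout values of 8.76, 8.79 and 8.42 against 9.04, 9.10 and 8.83. Another, dimmer probe set of Bsn changed by -0.07. Erc2 (the scaffold CAST) had a change of -0.08, and Rimbp2, which links RIM to calcium channels, the change closest to 0 in the list (95% confidence interval -0.17 to 0.16).

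Of 11 genes for vesicle membrane proteins and synapsins, 5 fell, 0 rose and 6 did not pass. All 11 changes lay below 0, with a median of -0.26. Synpr encodes synaptoporin, a four-span membrane protein related to synaptophysin, and had the largest change and the smallest p of the 58. It read 9.57, 9.59 and 9.64 in wild type and 8.91, 8.90 and 8.88 in knockout, a 1.63-fold fall (log2 change -0.70, SE 0.05, adjusted p = 9.50e-05). Both groups were tight (SD 0.04 and 0.02). Its better known relative Syp (synaptophysin) had a change of -0.18 (SE 0.05) that did not pass (adjusted p = 0.0858), and Sypl, a more widely expressed relative, one of -0.04. A dimmer probe set of Syp, with -0.14, did not pass either.

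The SV2 glycoproteins of the vesicle, which modulate release and are the receptors of botulinum toxin A, all fell. Sv2b read 11.14, 11.35 and 11.11 in wild type and 10.53, 10.55 and 10.47 in knockout, a 1.60-fold fall (log2 change -0.68, SE 0.06, adjusted p = 0.000473). Every knockout array lay more than 0.5 below the lowest wild-type array. Sv2a fell from 10.47 ± 0.13 to 10.10 ± 0.11 (log2 change -0.37, adjusted p = 0.0192) and Sv2c from 8.59 ± 0.13 to 8.22 ± 0.17 (SD, n = 3 each; log2 change -0.37, adjusted p = 0.0489). Sv2a lost its call without wild-type replicate 1 or 2 and without knockout replicate 1 (limma adjusted p = 0.0853, 0.0686 and 0.0501, changes -0.37, -0.31 and -0.39). Sv2c kept its call only when knockout replicate 2 was left out. Leaving out wild-type replicate 1, 2 or 3 gave 0.19, 0.0524 and 0.117 as adjusted p in limma, and leaving out knockout replicate 1 or 3 gave 0.101 and 0.106, with changes of -0.31, -0.44, -0.35, -0.38 and -0.28.

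The synapsins tether vesicles in the reserve pool. Syn2 fell from 11.06 ± 0.10 to 10.79 ± 0.07 (SD, n = 3 each; log2 change -0.27, adjusted p = 0.0307). Syn3 had nearly the same change, -0.26, and missed the threshold (adjusted p = 0.051), and Syn1 had a change of -0.20 (adjusted p = 0.14) with groups that touched at 10.64. Syn2 lost its call without wild-type replicate 2 or 3 and without knockout replicate 1 or 3 (limma adjusted p = 0.0961, 0.0692, 0.0858 and 0.0739, changes -0.22, -0.27, -0.26 and -0.23). The synaptogyrins Syngr1 and Syngr3 changed by -0.06 and -0.13 and did not pass.

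RAB3 proteins are the small GTPases of the vesicle that bind RIM. 2 of 4 genes of this cycle fell and 0 rose. Rab3c read 10.25, 10.32 and 10.24 in wild type and 9.84, 9.95 and 9.84 in knockout (log2 change -0.39, SE 0.05, adjusted p = 0.0023). A dimmer probe set of Rab3c, with a change of -0.23, did not pass (adjusted p = 0.307). Rab3a, the most abundant form in brain, fell by less, from 11.36 ± 0.02 to 11.15 ± 0.02 (SD, n = 3 each; log2 change -0.21, adjusted p = 0.0132), the smallest fall of the 23. It lost its call without wild-type replicate 1 (change -0.22, limma adjusted p = 0.0651). Rab3b had overlapping groups (7.99 ± 0.14 in wild type, 8.05 ± 0.12 in knockout, SD, n = 3 each) and a change of 0.06. Rab3gap1, the catalytic subunit of the complex that switches RAB3 off, changed by 0.04.

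Among the SNARE proteins and their handlers 3 of 9 fell, 0 rose and 6 did not pass (median change -0.10). Vamp1, synaptobrevin-1 of the vesicle membrane, read 9.11, 9.03 and 8.90 in wild type and 8.61, 8.68 and 8.52 in knockout (log2 change -0.41, SE 0.07, adjusted p = 0.00833). Vamp2, the synaptobrevin of most forebrain synapses, read 10.16, 10.16 and 9.98 in wild type and 10.07, 10.11 and 9.97 in knockout. Those groups overlapped, and the change of -0.05 did not pass (95% confidence interval -0.19 to 0.09). Snap25, the SNARE of the plasma membrane, fell from 12.40 ± 0.09 to 12.12 ± 0.01 (SD, n = 3 each; log2 change -0.28, adjusted p = 0.00946). Stxbp5 encodes tomosyn, which binds syntaxin and holds back SNARE assembly, and it fell by the same amount, from 10.92 ± 0.04 to 10.64 ± 0.04 (log2 change -0.28, limma adjusted p = 0.00665). Stx1a, the syntaxin of the complex, changed by -0.10 (adjusted p = 0.315) and Nsf, the ATPase that takes spent SNARE complexes apart, by -0.15 (adjusted p = 0.139). Snap29, Snap47 and Vamp4, which serve other membrane fusion steps as well, changed by 0.05, -0.06 and 0.03.

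The synaptotagmins, many of them calcium sensors, formed the largest group together with Doc2b. Of these 15 genes 3 fell, 0 rose and 12 did not pass (median change -0.17). Syt9 encodes a fast sensor related to synaptotagmin-1. It read 9.83, 10.07 and 9.97 in wild type and 9.46, 9.46 and 9.38 in knockout (log2 change -0.52, SE 0.06, adjusted p = 0.00194), with no overlap. Syt3, a sensor of high calcium affinity, read 8.41, 8.47 and 8.38 in wild type and 8.0, 8.05 and 8.05 in knockout (log2 change -0.39, SE 0.06, adjusted p = 0.0055). Syt7, the slow sensor of asynchronous release and facilitation, fell from 8.98 ± 0.13 to 8.62 ± 0.04 (SD, n = 3 each; log2 change -0.36, adjusted p = 0.0157). It lost its call without wild-type replicate 1 or 2 and without knockout replicate 1 (limma adjusted p = 0.0811, 0.0648 and 0.0564, changes -0.32, -0.32 and -0.35).

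The principal fast sensor, Syt1, read 11.63, 11.60 and 11.54 in wild type and 11.56, 11.53 and 11.44 in knockout, with overlapping groups and a change of -0.08 that did not pass (95% confidence interval -0.19 to 0.03). Syt2, the fast sensor of hindbrain synapses, read 9.16, 9.14 and 8.86 against 8.75, 8.81 and 8.62. Its change of -0.32 missed the threshold (SE 0.09, adjusted p = 0.0539) and passed without wild-type replicate 3 (change -0.42, limma adjusted p = 0.015). Of the other synaptotagmins, Syt5, Syt6, Syt12, Syt13 and Syt17 changed by -0.28 to -0.11 without overlap of the groups (by a hair for Syt5), and none of these 5 passed. Syt4 and Syt11, whose proteins do not bind calcium in the usual way, changed by -0.04 and -0.07. Dimmer probe sets of Syt4 changed by -0.20 and 0.11 and did not pass. Syt10, Syt16 and the high-affinity sensor gene Doc2b had changes of 0.09, 0.15 and 0.12 with overlapping groups.

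Complexins bind the assembled SNARE complex, where they both hold and promote fusion. Cplx1 fell from 11.18 ± 0.07 to 10.87 ± 0.07 (SD, n = 3 each; log2 change -0.32, SE 0.05, limma adjusted p = 0.00906). Cplx2 read 11.00, 11.08 and 11.01 in wild type and 11.15, 11.10 and 10.99 in knockout, so its groups overlapped, and it changed by 0.05 (95% confidence interval -0.06 to 0.17). Of the 3 complexins 1 fell and 0 rose.

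Of 4 genes of vesicle retrieval 2 fell, 0 rose and 2 did not pass (median change -0.28). In all 4 the groups did not overlap, knockout lower, against 13.1% of all genes. Amph encodes amphiphysin, which brings dynamin to the neck of the clathrin-coated pit. It read 11.39, 11.51 and 11.38 in wild type and 11.03, 11.06 and 11.03 in knockout (log2 change -0.39, SE 0.05, adjusted p = 0.00194). Snap91 encodes AP180, a clathrin adaptor that sets vesicle size and recruits synaptobrevin, and fell from 11.53 ± 0.06 to 11.23 ± 0.04 (SD, n = 3 each; log2 change -0.30, limma adjusted p = 0.00574). Dnm1, the dynamin that cuts the vesicle free, changed by -0.26 (adjusted p = 0.0771) and Synj1, the phosphatase that helps to uncoat it, by -0.17 (adjusted p = 0.11).

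**Figure D3:**
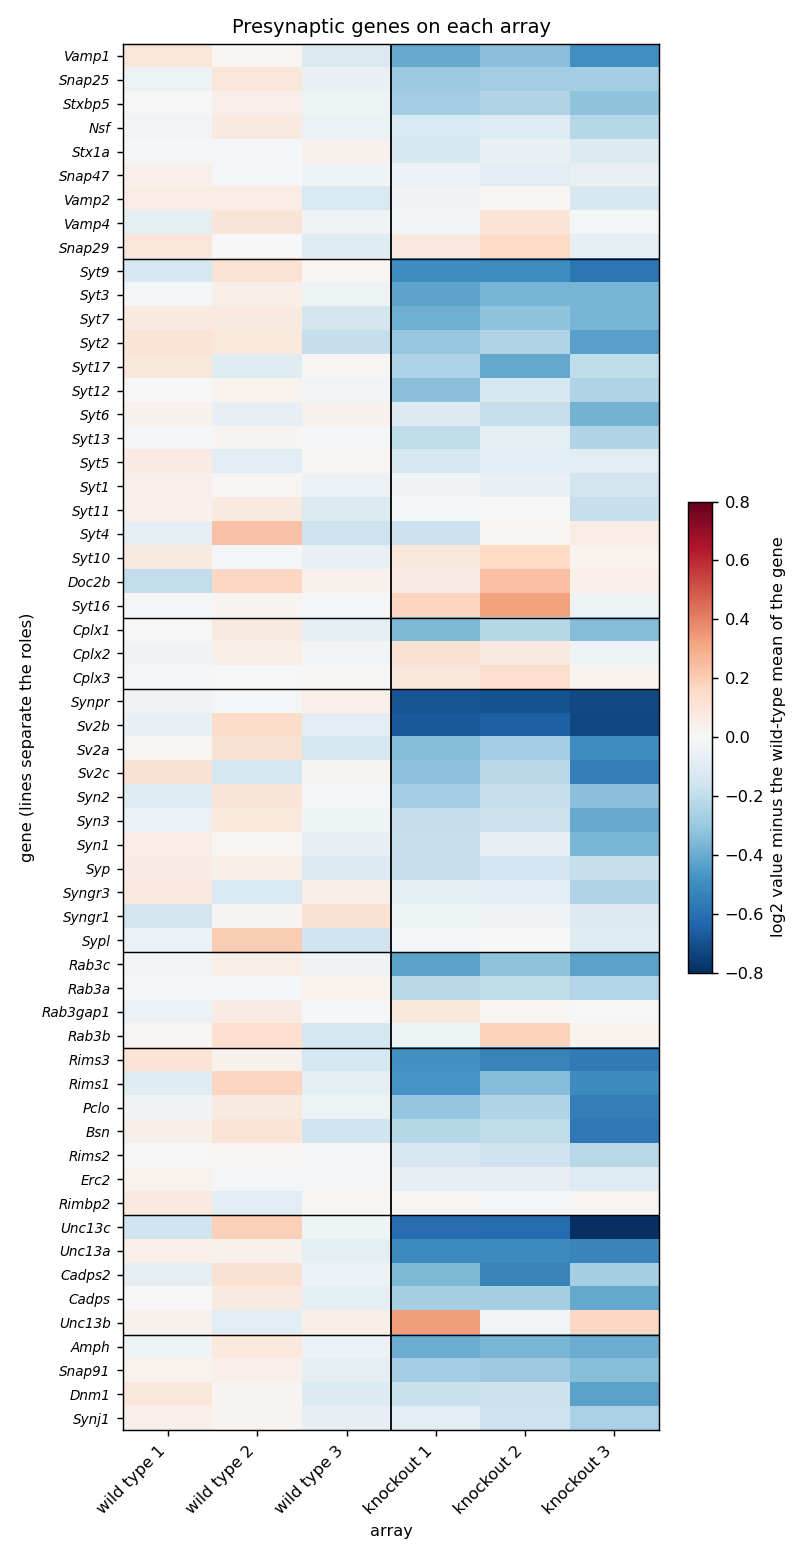
Each presynaptic gene (rows, grouped by role with lines between roles) on each of the 6 arrays (columns), as log2 value minus the gene's wild-type mean; blue is lower and red higher. Synpr, Sv2b and Unc13c are darkest on all 3 knockout arrays, and knockout 3 has the lowest mean over the genes (-0.27).

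Close relatives within a family therefore had unequal changes, described here for pairs picked with their values known and without a test. On the log2 scale, relative to the wild-type mean of the pair, Unc13a minus Unc13b was -0.85, -0.49 and -0.69 in knockout and 0.01, 0.12 and -0.13 in wild type. Cplx1 minus Cplx2 was -0.48, -0.30 and -0.32, against 0.03, 0.02 and -0.05. Vamp1 minus Vamp2 was -0.36, -0.34 and -0.36, against 0.03, -0.04 and 0.01. For these pairs, and for Rab3c with Rab3b (difference of the changes -0.45), Syt9 with Syt1 (-0.44) and Rims3 with Rims2 (-0.36), all 3 knockout arrays lay below all 3 wild-type arrays. Both probe sets of such a pair were read from one array, so only a shift equal for all its probe sets cancels in the difference. Other array effects were not tested. All 3 SV2 genes and both CAPS genes fell, but Sv2b (-0.68) changed more than Sv2a and Sv2c (-0.37 each).

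**Figure D4:**
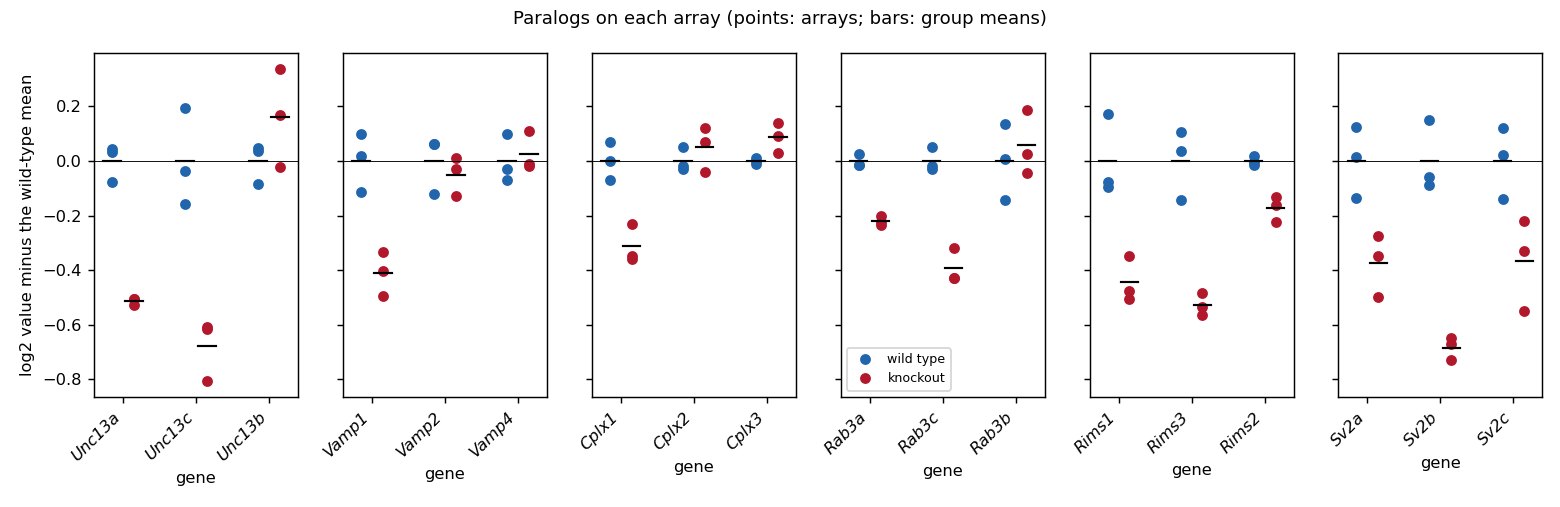
Log2 value minus the gene's wild-type mean (vertical axis) on each array for 6 families of 3 relatives; points are arrays, bars are group means, blue is wild type and red knockout. The knockout points of Unc13a, Unc13c, Vamp1 and Cplx1 lie below their wild-type points, while those of Unc13b, Vamp2 and Cplx2 overlap them.

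Other genes of the same machinery, drawn from a list of 65 names of which 60 were measured, gave smaller counts: 15 fell, 2 rose and 43 did not pass (25% fell, median change -0.10). Of all genes 3.94% fell and 2.72% rose. Stxbp5l, the relative of tomosyn, read 10.49, 10.60 and 10.51 in wild type and 9.97, 9.89 and 9.95 in knockout (log2 change -0.60, SE 0.05, adjusted p = 0.000258). Tspoap1, the RIM-binding protein RIM-BP1, fell by 0.61 (SE 0.10, adjusted p = 0.00653). Unlike those of Rimbp2, its groups did not overlap, at 9.03, 8.89 and 8.60 in wild type (SD 0.22) against 8.24, 8.18 and 8.28. Cask, the scaffold kinase that binds neurexin, fell by 0.41 and the liprin gene Ppfia4 by 0.29. The call of Ppfia4 was lost without wild-type replicate 1 (change -0.29, limma adjusted p = 0.055).

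The vesicular glutamate transporter genes Slc17a7 and Slc17a6 had the largest changes of these 60. Slc17a7 fell from 9.68 ± 0.05 to 8.86 ± 0.13 and Slc17a6 from 10.66 ± 0.14 to 9.94 ± 0.03 (SD, n = 3 each; log2 changes -0.81 and -0.72, limma adjusted p = 0.000286 and 0.000385). Slc17a8, another vesicular glutamate transporter gene, changed by -0.10 with overlapping groups and did not pass (limma adjusted p = 0.575). Slc32a1, the transporter of inhibitory vesicles, changed by -0.02 (95% confidence interval -0.17 to 0.12), and a dimmer probe set of it, with -0.31, did not pass either. Of 8 genes for presynaptic calcium channels 4 fell and 0 rose, with Cacna2d3 lower by 0.52 and Cacna1e by 0.49 at the head, and Cacna1a, the P/Q-type channel of parallel fibre terminals, lower by 0.23 (adjusted p = 0.0442). Cacna1a kept its call only when wild-type replicate 3 was left out, with adjusted p from 0.0611 to 0.125 in limma and changes from -0.25 to -0.18 without each of the other arrays. Of 17 other endocytosis genes 1 fell (5.88%) and 1 rose, near the shares of all genes (3.94% fell, 2.72% rose). Sh3gl2, an endophilin that bends the membrane, was not settled: its brightest probe set changed by 0.20 without passing, while 2 dimmer ones fell by 0.29 and 0.42 (adjusted p = 0.00713 and 0.00765 with every probe set tested). Bin1, the second amphiphysin, fell by 0.31 (SE 0.04, adjusted p = 0.00365), and the clathrin chains Clta, Cltb and Cltc changed by 0.06, 0.01 and -0.06. The 2 genes that rose were Syngr2, a synaptogyrin of non-neuronal cells, at 0.37 (adjusted p = 0.0312), named after its value was seen, and Itsn2, an intersectin, at 0.26 (adjusted p = 0.036). Syngr2 lost its call without wild-type replicate 2 or 3 and without knockout replicate 1 or 3 (limma adjusted p = 0.107, 0.0832, 0.0531 and 0.0697, changes 0.31, 0.35, 0.41 and 0.30). Itsn2 lost its call without wild-type replicate 1, 2 or 3 and without knockout replicate 1 or 2 (limma adjusted p = 0.0728, 0.0959, 0.101, 0.119 and 0.0828, changes 0.29, 0.26, 0.22, 0.23 and 0.25).

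Cell type markers moved beside these genes. Of 10 markers of maturing granule neurons 5 fell and 0 rose, and their mean level was 9.84 to 10.14 on the wild-type arrays and 9.39 to 9.60 on the knockout arrays. At an unadjusted limma p under 0.05, 9 were lower and 1 was higher, beside 2411 lower and 2122 higher of all 22180 genes. The higher marker was Cbln3, with a change of 0.34 that did not pass. Of the 5 that fell, Neurod1 lost its call without wild-type replicate 1 or 2 and without knockout replicate 1 (changes -0.43, -0.48 and -0.41, limma adjusted p = 0.108, 0.0907 and 0.0738). Kcnc1 lost it without wild-type replicate 1 or 2 (changes -0.45 and -0.34, limma adjusted p = 0.07 and 0.079). Of the 2 brightest, Cntn2, an adhesion gene of young granule neurons, fell by 0.77 and Cbln1, which organises their synapses, changed by -0.21 without passing. Of 7 markers of the oligodendrocyte lineage 1 fell (Mog, a myelin gene named after its value was seen) and 7 had an unadjusted p under 0.05, all lower, with mean levels of 9.59 to 9.69 in wild type and 8.81 to 9.54 in knockout. The call of Mog held only when the third wild-type array or the second knockout array was left out, and was lost without each of the other arrays (changes -0.68 to -0.53, adjusted p 0.0851 to 0.156 in limma). Of 8 Purkinje cell markers 1 rose (Lhx5) and 1 fell (Lhx1), with mean levels of 10.25 to 10.34 and 10.35 to 10.49, and of 6 inhibitory interneuron markers 0 passed in limma (2 at an unadjusted p under 0.05, both higher), at 9.03 to 9.08 and 8.99 to 9.22. Of 7 genes listed as precursor markers 1 rose (Atoh1, by 0.52), 2 fell (Pax6, by 0.30, and Zic1, by 0.24) and 4 did not pass. Whether these genes are confined to precursors was not tested. Of 7 markers of Bergmann glia and astrocytes 2 rose (Gfap and Gdf10). Calls of Lhx5, Gdf10 and Zic1 did not hold with every array left out. The part of these cell types in the presynaptic changes was not tested.

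Of 6 choroid plexus markers 0 passed in limma (3 at an unadjusted p under 0.05, all higher), but their mean level ran from 7.46 to 8.39 in wild type and from 7.55 to 9.85 in knockout. Knockout array 2 had low choroid plexus values (mean 7.55), like wild-type arrays 2 and 3 (7.46 and 7.60), and its mean over the 58 presynaptic genes was -0.17, against 0.04 and -0.05 on those arrays. A fit on these 3 arrays, where the lone knockout sample is assumed to vary like the wild type, left 6 of the 58 genes as falls, beside 0.559% of all genes. They were Synpr (-0.71), Unc13c (-0.70), Sv2b (-0.67), Cadps2 (-0.57), Syt9 (-0.56) and Unc13a (-0.49). All 23 genes kept a change below 0 there, and the median over the 58 was -0.15. With the mean of these 6 markers as a covariate, 11 of the 23 kept their call, while 1.54% of all genes fell. Across every alternative fit at the threshold of 0.05, the calls of 5 genes held: Syt9, Synpr, Sv2b, Unc13a and Unc13c. With each array left out in turn, 15 of the 23 held throughout, and the 8 that did not are those given above with their values.

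**Figure D5:**
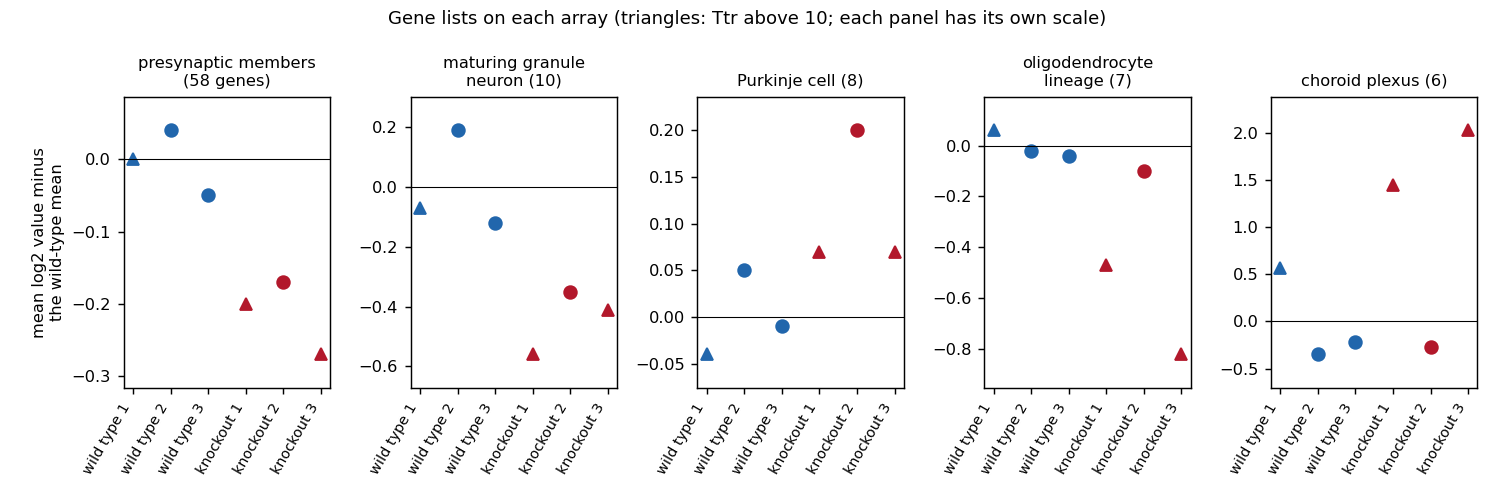
Mean log2 value of a gene list minus its wild-type mean on each array, for the presynaptic genes and 4 marker lists; blue is wild type, red knockout, and triangles are the arrays with Ttr above 10 (each panel has its own vertical scale). The presynaptic, maturing granule neuron and oligodendrocyte lineage lists are lower on all 3 knockout arrays, while the choroid plexus list is high on wild type 1, knockout 1 and knockout 3.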

How the data were processed

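RNA of 6 samples had been measured on expression arrays with biotin label; Trizol served for extraction, per the labels' protocols. The deposited values are log2 expression values, 1 per probe set and array, which the authors made with RMA in oligo, as the submitters' processing notes name them without versions. The array design and any filter are not named in those sources. The array medians ran from 7.25 to 7.29, and the deposited values were not normalized again. Of 41345 probe sets, 23521 had 1 gene symbol in the platform annotation, 1814 had several and 16010 had none; only the first kind was used. 4 of the 58 genes had more than 1 probe set.

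Knockout was set against wild type by limma 3.58.1 (R 4.3.3; linear fit and eBayes with a brightness trend), two-sided, with Benjamini-Hochberg adjustment over 22180 genes. Signed changes are knockout minus wild type. SE is the standard error of the fit. Tables and plots used Python 3.11.15, pandas 2.3.3 and matplotlib 3.10.9. With 3 arrays a group, their number limits the precision. Alternatives changed the prior, the normalization, the probe set rule, the threshold, the arrays used and a choroid plexus covariate. The members, lists and alternatives were chosen with earlier results of these data known. Named with values are all members past the threshold, others with a change of at least 0.3 in size, their paralogs, and the 2 smallest p of each sublist of other presynaptic genes; per-array values are given mainly for the 12 largest falls and their paralogs.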

Additional observations from a re-analysis of the deposited data

How the results depend on the processing

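The 58 presynaptic genes gave 25 falls with a robust prior, where 4.09% of all genes tested fell. They gave 25 without dim genes (5.38% of all genes tested), 25 after repeated quantile normalization (3.97%) and 25 with array weights (4.55%). Falls numbered 23 with every probe set tested (3.87%) or with the mean of a gene's probe sets (3.93%). At an adjusted p under 0.1 they numbered 31, and 55.8% of all genes past that threshold were falls. Without a brightness trend in the prior, 10 of the 58 fell, with 310 falls and 184 rises over all genes. When the choroid plexus mean was a covariate the counts were 12, 342 and 290. Without the 3 arrays with Ttr above 10 they were 6, 124 and 112, the median over the 58 was -0.15 and 5 other presynaptic genes fell. At an adjusted p under 0.01 they were 15, 343 and 148, and at 0.1 the rises over all genes numbered 1023. Of the other presynaptic genes 0 rose in the fit without a trend, with the covariate, without those arrays or at 0.01, and 1 rose after median centring. With 1 array left out at a time, 17 to 25 of the 58 fell and 0 rose, their median ran from -0.23 to -0.17, 10 to 16 other presynaptic genes fell and 0 to 1 rose, and over all genes 366 to 800 fell and 199 to 478 rose. The lowest counts over all genes came without wild-type replicate 1. All 23 genes that fell kept a change below 0 in each of these fits. The cause was not tested.

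Deviations from the group means correlated at 0.014, 0.03 and -0.133 between same-numbered arrays across genes. With 3 arrays a group, such values cannot tell whether replicate numbers pair the samples. With the replicate number as a block, 26 of the 58 fell, with 1078 falls and 723 rises over all genes. No wild-type array correlated best with the knockout array of its own number. Wild-type array 2 came close, with 0.03 for knockout array 2 and 0.031 for knockout array 3. Syt2 and Bsn were among the genes that passed with the block, and Sv2c lost its call (adjusted p = 0.0139, 0.0118 and 0.0533 in limma). No detection call came with the values, so what signal over background limits is unknown, but all 58 genes averaged above the 25th percentile of all values.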
